A study of Ovis aries with 6 samples.

Results

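The genes described here build, cross-link, bind or cut the hyaluronan matrix of the ovulating follicle: HAS2, TNFAIP6, PTX3, VCAN, CD44 and ADAMTS1. They were chosen by name, and all 6 were found among the 30574 genes counted in the ovaries of 6 Hu sheep ewes. HAS2 stands in the gene table as LOC101110341 and was matched to its symbol through its RefSeq gene ID, and the other members were matched by symbol. The ewes, a prolific Chinese breed, fell into a high litter size group (HLS, 3 ewes with litters of at least 3 lambs) and a low litter size group (LLS, 3 ewes with litters below 2 lambs). They carried no treatment or induced mutation that the labels name. Each ewe was in oestrus at slaughter and gave 1 library, made from a whole ovary that was cut up, digested with collagenase and trypsin and run on 10x Genomics 3′ single-cell RNA-seq.

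Hyaluronan is a long unsulphated sugar chain that HAS2 extrudes from the plasma membrane of granulosa and cumulus cells. After the surge of luteinising hormone, the cumulus cells around the oocyte embed themselves in a hyaluronan gel. In that gel TNFAIP6 moves heavy chains of inter-alpha-trypsin inhibitor onto hyaluronan, PTX3 binds these heavy chains and cross-links them, VCAN is a large proteoglycan that binds hyaluronan through its head domain, CD44 is the cell surface receptor that holds hyaluronan, and ADAMTS1 is the secreted protease that cleaves VCAN.

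After filtering, 36457 cells were kept, 5189 to 7096 per ewe, with 35349696 to 67232342 unique molecular identifiers (UMI, each 1 captured transcript) per ewe in the kept cells. Median depth per cell ran from 5198 to 9777.5 UMI, the mean mitochondrial share from 4.15% to 6.01%, and any pair of libraries shared 5 to 16 cell barcodes. Cell types were rebuilt from clusters and named by marker genes, with the members and all listed genes left out of the clustering. The p-values between types therefore describe how well a difference repeats across ewes, and every p-value here measures the spread between ewes. The level of a gene is its UMI per 10000 UMI of all cells of 1 type in 1 ewe. It is a share of the RNA captured from that type, and levels of different genes are not compared. In the granulosa-like cells (2964, 275 to 895 per ewe), the 8 granulosa marker genes found summed to more in every ewe than in the stromal-like cells, and none of them stood at 0. The cells were named by these same markers, so the sum describes them and is no test of their identity.

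HAS2, the synthase, had the fewest UMI, 454 in 252 cells of all ovaries. Of these UMI, 56% lay in stromal-like cells, 20.5% in granulosa-like cells, 15% in perivascular-like cells and 4.41% in Schwann-like cells. In granulosa-like cells the HAS2 level was 0.013, 0.00935 and 0.0754 in HLS ewes 1, 2 and 3, and 0, 0.0132 and 0.0461 in LLS ewes 1, 2 and 3. These rest on 5, 4 and 65 UMI in HLS and 0, 8 and 11 UMI in LLS, so HLS ewe 3 held most of the granulosa-like signal. In stromal-like cells the HAS2 level was 0.00594, 0.0324 and 0.0222 in HLS and 0.0302, 0.181 and 0.0479 in LLS, with LLS ewe 2 far above the other ewes. Its highest mean level was in Schwann-like cells, the glia of the ovarian nerves, at 0.538 ± 0.407 (SD, n = 6 ewes) against 0.0583 ± 0.0436 in perivascular-like cells, and Schwann-like cells were above perivascular-like cells in every ewe. The Schwann-like values rest on 2 to 5 UMI per ewe and 10 to 39 cells. Of 807 lymphatic endothelial-like cells none had a HAS2 UMI, which allows up to 0.372% of cells with a UMI (counting error only) and sets no limit on cells that express the gene.

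TNFAIP6, the heavy chain transferase, had 2436 UMI, 42.9% of them in stromal-like, 17.7% in granulosa-like and 15.4% in macrophage-like cells. The TNFAIP6 level in granulosa-like cells was 0.213, 0.0514 and 0.0302 in HLS ewes and 0.838, 0.22 and 0.0629 in LLS ewes. LLS ewe 1 was the highest by far, and the groups overlapped. In macrophage-like cells the TNFAIP6 level was 0.321, 0.285 and 0.576 in HLS and 0.136, 0.913 and 0.167 in LLS. Mean TNFAIP6 levels were 0.733 ± 0.445 in Schwann-like, 0.4 ± 0.296 in macrophage-like, 0.236 ± 0.306 in granulosa-like and 0.208 ± 0.120 in stromal-like cells (SD, n = 6 ewes each), a set of types whose ranges over the ewes overlapped.

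PTX3, the pentraxin cross-linker, had 6017 UMI, and among the named types its highest mean level was in lymphatic endothelial-like cells. There the PTX3 level was 3.40, 5.21 and 1.54 in HLS ewes and 3.71, 0.612 and 2.37 in LLS ewes, against 0.00558 to 0.0244 in blood endothelial-like cells. Lymphatic endothelial-like cells carried 30.3% of all PTX3 UMI. Granulosa-like cells carried 21.2%, at levels of 0.182, 0.122 and 0.788 in HLS and 0.597, 0.367 and 0.591 in LLS. A PTX3 UMI was seen in 37.0% of lymphatic endothelial-like, 16.0% of granulosa-like and 0.816% of blood endothelial-like cells, whose median depths were 5801, 7849 and 8712 UMI. With each cell thinned to 1000 UMI these shares were 15.1%, 4.15% and 0.163%, so the order did not follow depth. Macrophage-like cells held PTX3 at 0.675 ± 0.464 (SD, n = 6 ewes) and granulosa-like cells at 0.441 ± 0.261, a pair whose ewes overlapped. The macrophage markers summed to 0.119 to 0.210 in granulosa-like cells and to 25.5 to 67.9 in macrophage-like cells.

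VCAN, the proteoglycan, had 25809 UMI, of which 38.2% lay in stromal-like, 30.7% in granulosa-like and 12.3% in macrophage-like cells. The VCAN level in granulosa-like cells was 0.546, 4.65 and 2.22 in HLS ewes and 3.30, 4.29 and 2.61 in LLS ewes, with HLS ewe 1 the lowest. In macrophage-like cells the VCAN level was 1.30, 6.85 and 4.16 in HLS and 3.37, 1.74 and 5.55 in LLS. Mean VCAN levels of macrophage-like (3.83 ± 2.15), Schwann-like (3.22 ± 4.60), granulosa-like (2.93 ± 1.5) and stromal-like cells (2.14 ± 1.17, SD, n = 6 ewes each) overlapped. Without HLS ewe 2, Schwann-like cells held the highest mean VCAN level (3.55) in place of macrophage-like cells. Perivascular-like cells followed at 0.908 ± 0.392, below stromal-like cells in every ewe, and blood endothelial-like cells held only 0.0229 to 0.0697.

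CD44, the hyaluronan receptor, was mostly a leukocyte transcript in these ovaries, with 46.8% of its 5918 UMI in macrophage-like cells. In macrophage-like cells the CD44 level was 2.22, 3.86 and 4.06 in HLS ewes and 2.12, 3.6 and 3.33 in LLS ewes. In every ewe this was above the immune-like cells, a class led by GNLY and CD3E, at 1.40 ± 0.564 (SD, n = 6 ewes). Granulosa-like cells held 81 UMI in all, 1.37% of the total, and CD44 levels of 0.0052, 0.00935 and 0.0615 in HLS and 0, 0.0215 and 0.0377 in LLS. A CD44 UMI was seen in 1.86% of granulosa-like cells, 64.3% of macrophage-like cells and 0.56% of blood endothelial-like cells, at median depths of 7849, 6145 and 8712 UMI. Thinned to 1000 UMI per cell, the shares were 0.202%, 22.3% and 0.0851%.

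ADAMTS1, the VCAN protease, was mostly a vascular transcript, with 68.3% of its 101326 UMI in blood endothelial-like cells, which were 38.7% of all cells. The ADAMTS1 level there was 3.83, 4.76 and 7.10 in HLS ewes and 4.48, 5.84 and 4.92 in LLS ewes, above the lymphatic endothelial-like cells (3.04 ± 0.958, SD, n = 6 ewes) in every ewe. Stromal-like cells followed at 2.87 ± 0.516 and perivascular-like cells at 2.75 ± 0.456, while theca-like cells stood at 0.642 ± 0.251. An ADAMTS1 UMI was seen in 78.7% of blood endothelial-like, 63% of stromal-like and 55.5% of perivascular-like cells. Their median depths were 8712, 5107 and 3346.5 UMI. Granulosa-like cells varied little, with an ADAMTS1 level of 0.369, 0.592 and 0.622 in HLS and 0.542, 0.547 and 0.486 in LLS, and carried 1.46% of the UMI. Of the endothelial-like clusters, one led by GJA5 and BMX, genes known from arterial endothelium, held ADAMTS1 at 4.90, 14.8 and 8.80 in HLS and 12.4, 9.03 and 6.38 in LLS.

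**Figure D1:**
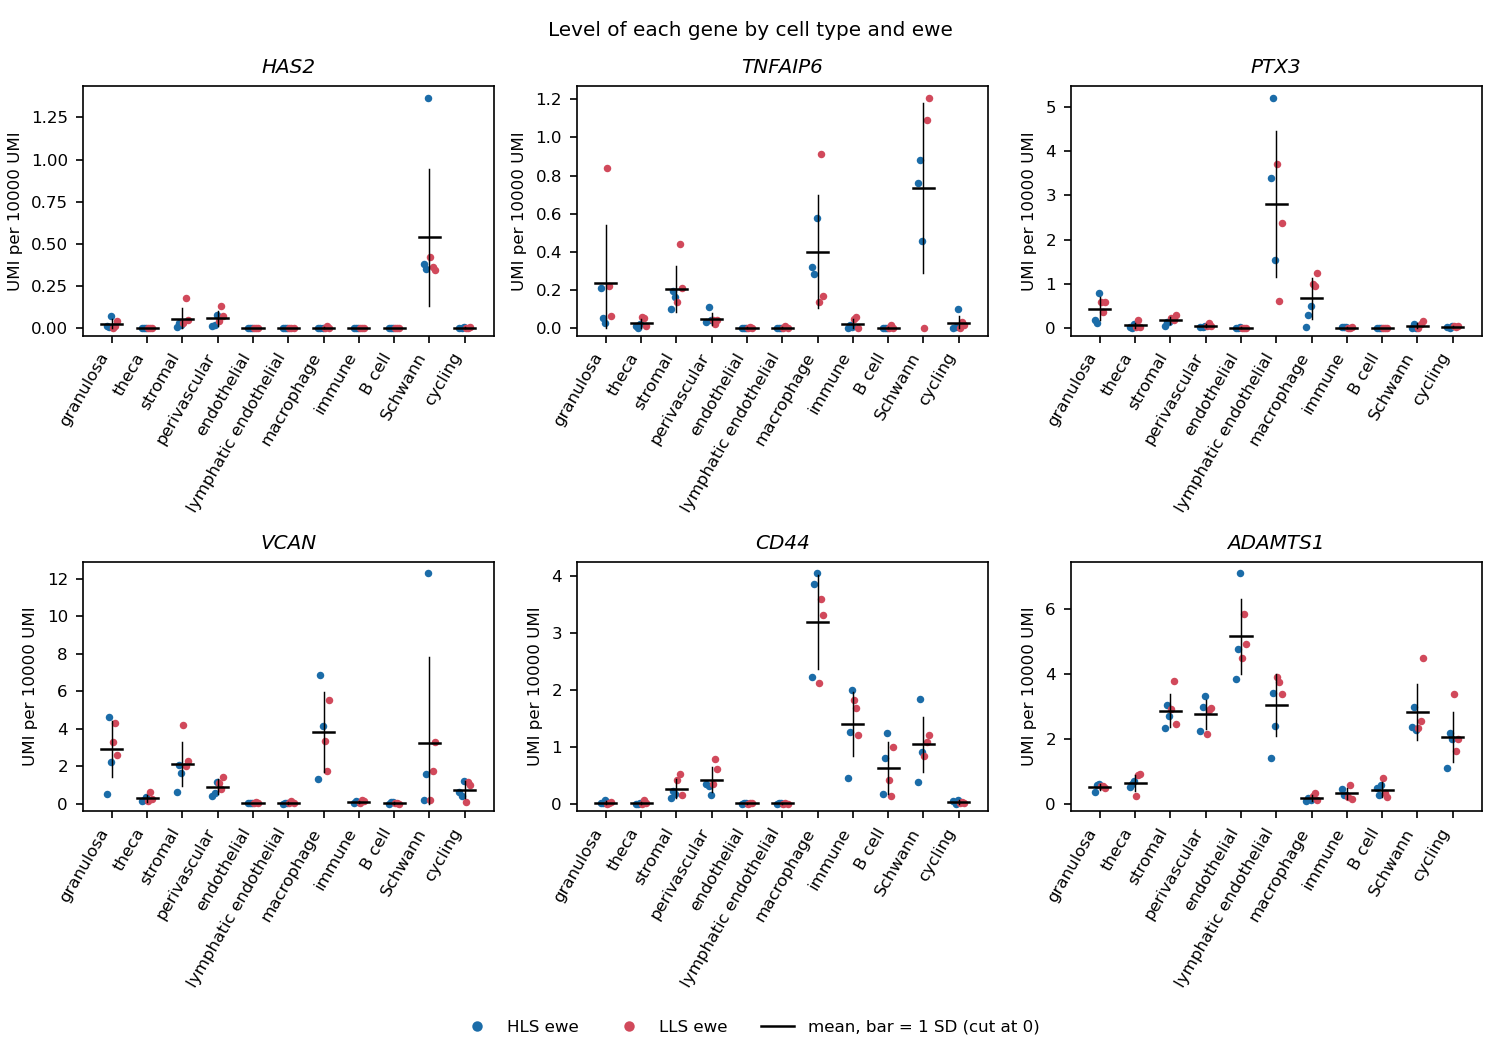
Level of each member (UMI per 10000 UMI of the type) in each cell type, one panel per gene, with HLS ewes in blue, LLS ewes in red, a line at the mean and a bar of 1 SD over ewes, cut at 0. PTX3 peaks in lymphatic endothelial-like cells, CD44 in macrophage-like cells and ADAMTS1 in blood endothelial-like cells, while VCAN and TNFAIP6 are spread over several types.

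Ranked by mean level within each gene, the types gave 60 neighbouring pairs. In an exact paired permutation test of each pair (two-sided, 6 ewes, smallest possible p = 0.03125), 11 pairs reached the smallest p and 0 passed Benjamini-Hochberg adjustment over the 60 pairs (lowest adjusted p = 0.170). The 11 pairs, each higher in 6 of 6 ewes, were Schwann-like over perivascular-like for HAS2, stromal-like over perivascular-like for TNFAIP6, stromal-like over theca-like and blood endothelial-like over B cell-like for PTX3, macrophage-like over immune-like and stromal-like over cycling for CD44, blood over lymphatic endothelial-like and cycling over theca-like for ADAMTS1, and stromal-like over perivascular-like, theca-like over immune-like and immune-like over lymphatic endothelial-like for VCAN. With this smallest p, a pair could pass only if most of the 60 pairs also reached it, so the test had little room to call any. No pair of neighbours is therefore shown to differ, and the 11 pairs are given as a description.

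Granulosa-like cells were then tested against each of the other main groups, with the ewe as a block in edgeR's quasi-likelihood model. A separate class of 1870 cycling cells was in none of the other groups, whereas 196 cycling granulosa-like cells stayed among the granulosa-like cells. The part of this in the differences was not tested. Against stromal-like cells, with theca-like cells included, PTX3 and VCAN were higher and CD44 and ADAMTS1 lower. That is 2 members higher and 2 lower of 6 tested, beside 21.3% of all 14791 genes higher and 25.1% lower. The log2 fold change was 1.48 ± 0.26 for PTX3 (SE, adjusted p = 0.000917), 0.73 ± 0.24 for VCAN (adjusted p = 0.0287), -2.94 ± 0.56 for CD44 (adjusted p = 0.00164) and -2.18 ± 0.14 for ADAMTS1 (adjusted p = 1.35e-06). With theca-like cells left out, the VCAN difference was 0.30 and its call was lost (adjusted p = 0.276). HAS2 (-0.25 ± 0.81, adjusted p = 0.823) and TNFAIP6 (-0.12 ± 0.53, adjusted p = 0.871) did not pass. The median log2 fold change of the members was -0.19, beside -0.04 over all genes tested.

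Against endothelial-like cells, lymphatic included, 5 members were higher in granulosa-like cells and ADAMTS1 was lower, beside 30.1% of genes higher and 30.9% lower. The log2 fold change was 6.30 ± 0.62 for TNFAIP6 (adjusted p = 1.38e-05), 5.72 ± 0.38 for VCAN (adjusted p = 9.47e-07) and -3.41 ± 0.12 for ADAMTS1 (adjusted p = 2.13e-08). PTX3 was higher by 1.80 ± 0.42 (adjusted p = 0.00444), and by 5.0 once lymphatic endothelial-like cells were left out. CD44 passed narrowly at 1.23 ± 0.47 (adjusted p = 0.0436, 0.0284 to 0.56 over the alternatives). HAS2 was called as well (5.93 ± 0.68, adjusted p = 4.4e-05), but endothelial-like cells held 3 HAS2 UMI against 93 in granulosa-like cells. Of these 93, HLS ewe 3 gave 65. With UMI pooled over ewes, the ratio of levels was 173 (exact 95% interval 57.4 to 853, counting error only). The median of the members was 3.76, beside -0.0037 over all genes.

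Against perivascular-like cells, 3 members were higher and 2 lower, beside 25.2% and 25.8% of genes. PTX3 was higher by 3.00 ± 0.31 on the log2 scale (adjusted p = 7.16e-06), VCAN by 1.56 ± 0.29 (adjusted p = 0.000715) and TNFAIP6 by 1.65 ± 0.63 (adjusted p = 0.0456). The TNFAIP6 difference was 0.89 without LLS ewe 1 and its call was then lost. CD44 (-4.09 ± 0.51, adjusted p = 3.49e-05) and ADAMTS1 (-2.38 ± 0.12, adjusted p = 1.11e-08) were lower, and HAS2 gave -1.21 ± 0.52 (adjusted p = 0.0728).

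Against immune-like cells, macrophages included, HAS2 and ADAMTS1 were higher and CD44 was lower, beside 31.4% of genes higher and 33.7% lower. CD44 gave a log2 fold change of -7.11 ± 0.31 (adjusted p = 1.84e-10), and ADAMTS1 was higher by 0.88 ± 0.19 (adjusted p = 0.00131). For HAS2 (3.55 ± 0.89, adjusted p = 0.00348) the immune-like side held 2 UMI. With UMI pooled over ewes, the ratio of levels was 22.5 (exact 95% interval 6.05 to 188, counting error only). Which leukocytes stood on the other side decided the result for the remaining members. Against macrophage-like cells alone TNFAIP6 (-1.76), VCAN (-0.77) and PTX3 (-0.91) were lower in granulosa-like cells, and with macrophage-like cells left out the same genes were higher, by 2.59, 4.17 and 4.34.

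Within the granulosa-like cells, sub-clusters were matched to states by markers that did not include the members: early (439 cells, WT1, TNNI3, WNT6), cumulus (248 cells, AMH, INHA, INHBB, IHH, FST), mural (734 cells, FSHR, CITED2, GJA4, IGFBP5) and cycling (196 cells, MKI67, TOP2A). Only part of each marker list is named here. The early-like class joins sub-clusters of 170, 155 and 114 cells, and WT1 was the only early marker among their leading genes, in the first. The sub-cluster of 114 cells, 66 of them from LLS ewe 2, was led by CYTL1, FATE1 and RGS5. HSD3B1, an atretic marker, was also among its leading genes, and it scored 1.185 on early and 0.5308 on atretic markers. The mural list also held CYP11A1, HTRA3, JPH1, MUSTN1, TIMP1 and XIRP1. Its markers TIMP1 and MUSTN1 were among the leading genes of a mural-like sub-cluster of 179 cells. IGFBP5, MUSTN1 and XIRP1 were among those of a sub-cluster of 176 cells. The mural-like sub-clusters of 214 cells (led by MX1 and ISG15) and 165 cells (led by MMP9 and FN1) had no mural marker among their leading genes. They were named by their mural scores, 1.761 and 1.58. A sub-cluster of 26 cells scored highest on atretic markers (1.49) and next on cumulus markers (1.088). Its first leading genes were CYP19, INHBA, INHA and CDHR5, of which INHA is a cumulus marker and CDHR5 an atretic marker. It is called here by its first leading gene, CYP19, which is no verdict on whether it is atretic. A further 1321 cells stayed unnamed. HLS ewe 1 gave 9 cumulus-like cells, fewer than the 10 needed for a sum, so 5 ewes enter where cumulus-like cells are compared. The mural-like class joins 4 sub-clusters, and a pair of them is nearly 1 ewe each, with 209 of 214 cells from LLS ewe 2 in one and 165 of 179 from HLS ewe 1 in the other.

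VCAN differed most clearly between the states. Low VCAN was among the signs by which the study picked its early cells, and it was not used here. Its level in cumulus-like cells was 6.82 and 8.63 in HLS ewes 2 and 3, and 11.6, 14.9 and 10.4 in LLS ewes. In early-like cells the VCAN level was 1.39, 3.79 and 3.72 in HLS and 1.82, 3.14 and 2.14 in LLS. In mural-like cells it was 0.224, 0.810 and 1.31 in HLS and 0.600, 1.79 and 0.591 in LLS. Every cumulus-like sum was above every early-like and every mural-like sum. The early-like class was mixed, since 1 of its 3 sub-clusters, of 170 cells, held 504 of its 672 VCAN UMI. In that sub-cluster the VCAN level was 1.90, 7.60 and 3.76 in HLS ewes and 12.6 in LLS ewe 2, and in HLS ewe 2 it was above the cumulus-like level of the same ewe, from 10 cells. Cycling granulosa-like cells held a mean VCAN level of 9.24 ± 3.12 against 10.5 ± 3.07 in cumulus-like cells (SD, n = 5 ewes each). The cycling cells also scored 1.54 on the cumulus markers, beside 1.65 in the cumulus-like cells. A VCAN UMI was seen in 226 of 248 cumulus-like cells (91.1%), 41.7% of early-like, 33.2% of mural-like and 3.35% of blood endothelial-like cells, at median depths of 11564, 4308, 13307.5 and 8712 UMI. After thinning, the shares were 52.0%, 17.3%, 6.13% and 0.539%. Cumulus-like and cycling cells made up 8.37% and 6.61% of granulosa-like cells and held 33.0% and 24.2% of their VCAN UMI.

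PTX3 followed another order. The PTX3 level in mural-like cells was 0.196, 0.234 and 0.804 in HLS ewes and 1.05, 0.425 and 0.723 in LLS ewes, and in early-like cells 0.13, 0 and 0.502 in HLS and 0.0866, 0.186 and 0.136 in LLS. In cumulus-like cells it was 0.0816 and 0.0708 in HLS ewes 2 and 3, and 0, 0.0903 and 0 in LLS. The ranges of mural-like and cumulus-like cells did not overlap. The mural-like class was mixed for PTX3. Its sub-cluster led by IGFBP5, XIRP1 and THBS1 held a mean of 1.40 ± 0.748 (SD, n = 5 ewes). Its sub-cluster led by MMP9, FN1 and FBN1 held 0.0672 ± 0.0569 (SD, n = 4 ewes), and the sub-clusters of nearly 1 ewe each held 0.359 and 0.232. Outside the named states, a sub-cluster of 370 cells led by G0S2, PDK4 and MMP1 held 1.19 ± 0.632 (SD, n = 5 ewes). ADAMTS1 differed less, with mean levels of 0.918 ± 0.374 in early-like (n = 6), 0.574 ± 0.219 in mural-like (n = 6), 0.546 ± 0.421 in cumulus-like (n = 5) and 0.25 ± 0.113 in cycling cells (SD, n = 5 ewes).

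**Figure D2:**
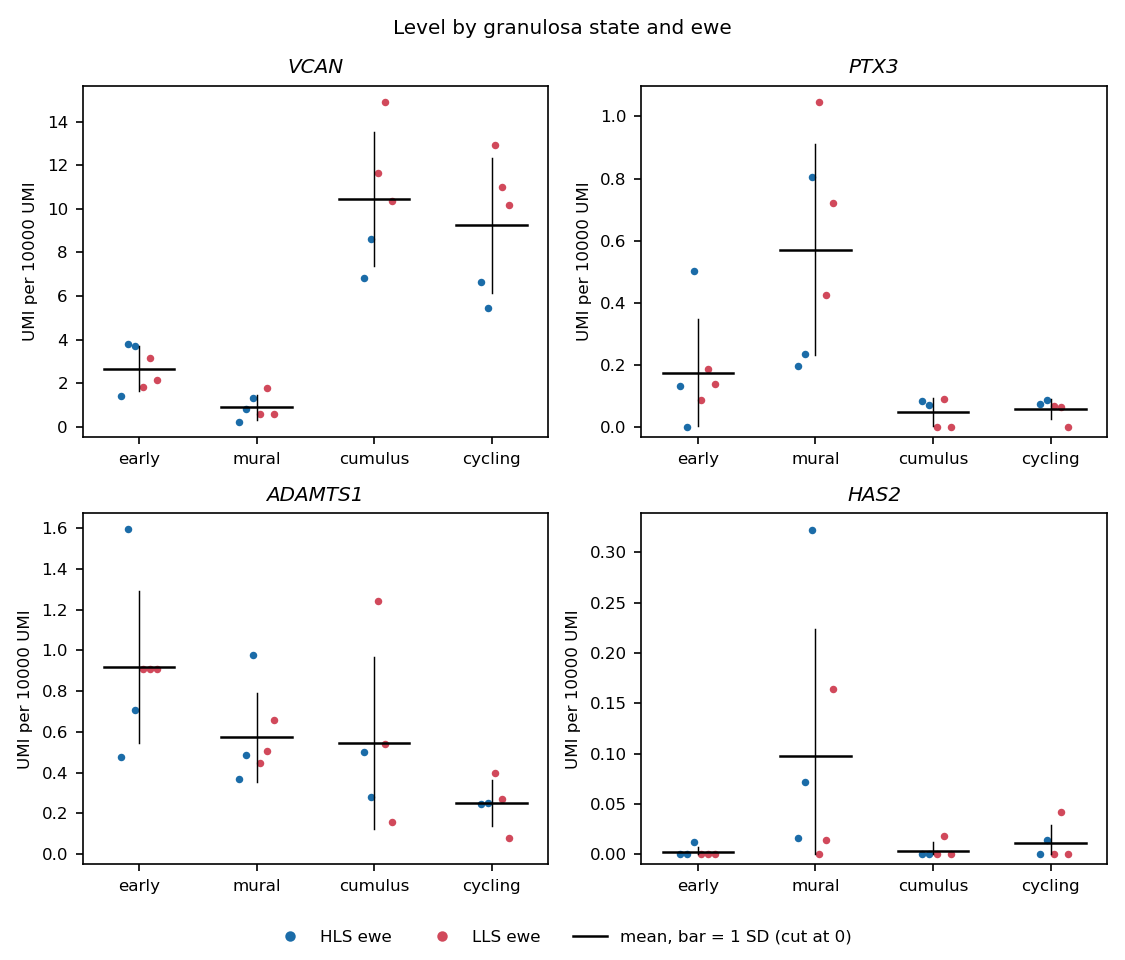
Levels of VCAN, PTX3, ADAMTS1 and HAS2 (UMI per 10000 UMI of the state) in early-like, mural-like, cumulus-like and cycling granulosa-like cells, with 1 point per ewe (HLS blue, LLS red), a line at the mean and a bar of 1 SD cut at 0. Among the states shown, VCAN is highest in cumulus-like and cycling cells, whereas PTX3 is highest in mural-like cells.

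Between states, edgeR with the ewe as a block gave VCAN higher in cumulus-like than in early-like cells by 1.95 ± 0.18 on the log2 scale (SE, adjusted p = 1.71e-09) and ADAMTS1 lower by -0.88 ± 0.26 (adjusted p = 0.00707). These are 1 member higher and 1 lower of the 2 that passed the filter on low counts, beside 21.5% of 6543 genes higher and 21.4% lower. Without HLS ewe 2 the ADAMTS1 difference was -0.65 and its call was lost. Mural-like cells had less VCAN than early-like cells (-1.60 ± 0.19, adjusted p = 9.75e-07) and more PTX3 (1.53 ± 0.31, adjusted p = 0.000475), 1 lower and 1 higher of 3 members tested, beside 23.1% and 23.4% of genes. Cumulus-like cells had more VCAN than mural-like cells (3.42 ± 0.19, adjusted p = 4.25e-12) and less PTX3 (-2.58 ± 0.37, adjusted p = 8.03e-06), beside 20.4% of genes higher and 24.2% lower, and ADAMTS1 did not pass (-0.18 ± 0.31, adjusted p = 0.672). HAS2, TNFAIP6 and CD44 stayed under the filter on low counts in all 3 comparisons, and without the filter each was called in both comparisons with mural-like cells. The share of all genes called without the filter is not given here, so these calls have no background beside them. Those calls rest on few UMI, with 1, 4 and 5 in early-like and 1, 4 and 0 in cumulus-like cells. In mural-like cells HLS ewe 3 gave 61 HAS2 and 40 CD44 UMI, and LLS ewe 2 gave 102 TNFAIP6 UMI, the most of any ewe. The immediate early genes, a stress-sensitive set of 10 including FOS and JUN, summed to 109 to 238 UMI per 10000 in early-like, 73.8 to 134 in cumulus-like and 34.7 to 68.3 in mural-like cells, and their part in these differences was not tested.

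Most of the HAS2 and CD44 UMI of granulosa-like cells lay in the same sub-cluster. Of the 93 HAS2 UMI in granulosa-like cells, 79 (84.9%) lay in 1 mural-like sub-cluster of 165 cells led by MMP9, FN1 and FBN1. They came from 21 cells, with up to 30 UMI in a single cell, and the ewes gave 3, 4 and 59 UMI in HLS and 0, 3 and 10 in LLS. The same sub-cluster held 48 of the 81 CD44 UMI (59.3%), 39 of them from HLS ewe 3. Its stromal markers summed to 16.2 to 31.8 UMI per 10000, against 3.44 to 9.05 in all granulosa-like cells and 113 to 301 in stromal-like cells, and the part of these markers in its HAS2 and CD44 was not tested. Only 1 HAS2 UMI was found in cumulus-like cells, and 0 of 248 cumulus-like cells had a CD44 UMI, which allows up to 1.21% of cells with a UMI (counting error only), not of cells expressing it.

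TNFAIP6 lay elsewhere. The 26 cells led by CYP19, 0.877% of granulosa-like cells, held 135 of 431 TNFAIP6 UMI (31.3%), with 48 from HLS ewe 1, 2 from HLS ewe 2 and 85 from LLS ewe 1. LLS ewe 1 gave 19 and HLS ewe 1 gave 3 of these 26 cells, with up to 44 UMI in a single cell. A TNFAIP6 UMI was seen in 50% of these cells, and in 23.1% after thinning, against 4.18% and 1.35% of all granulosa-like cells and 0.177% and 0.0213% of blood endothelial-like cells, at median depths of 7917, 7849 and 8712 UMI. A further 99 UMI lay in the mural-like sub-cluster of LLS ewe 2, whose leading genes included the interferon-induced MX1 and ISG15. Another 78 lay in an unnamed sub-cluster, with a median depth of 2039 UMI, where LLS ewe 1 gave 62. Of the 1273 PTX3 UMI, 510 (40.1%) lay in a sub-cluster led by G0S2, PDK4 and MMP1, 402 of them from HLS ewe 3. Another 278 lay in a mural-like sub-cluster led by IGFBP5, XIRP1 and THBS1, with 2, 11 and 137 UMI in HLS and 52, 34 and 42 in LLS.

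**Figure D3:**
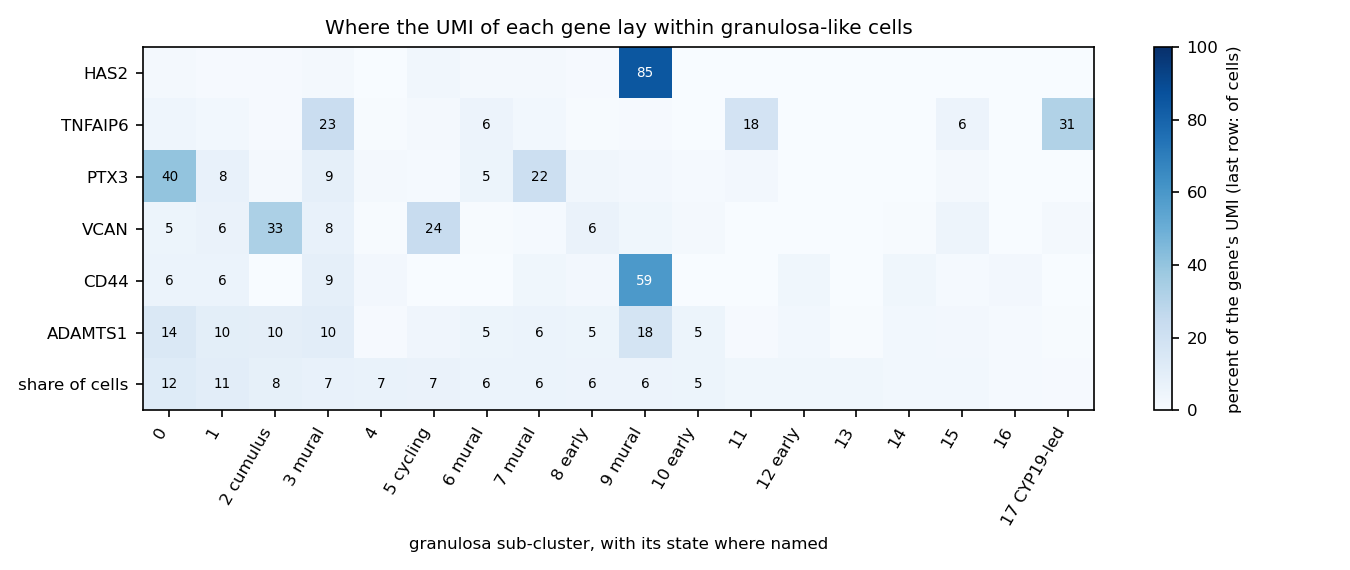
Percent of each member's UMI in granulosa-like cells that lies in each sub-cluster, as a heatmap with genes in rows and sub-clusters in columns, and the share of cells in the last row. HAS2 and CD44 gather in the sub-cluster of 165 cells and VCAN in the cumulus-like and cycling sub-clusters. TNFAIP6 is spread over several sub-clusters, with its largest share (31.3%) in the 26 cells led by CYP19.

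In the stroma, much of the HAS2 lay in 1 cluster. It was led by SERPINF1, DPT and PI16, genes known from adventitial fibroblasts, and its 1478 cells held 187 of the 454 HAS2 UMI (41.2%) and 21.4% of all TNFAIP6 UMI. The HAS2 level in this cluster was 0.0341, 0.193 and 0.0695 in HLS ewes and 0.0995, 0.402 and 0.168 in LLS ewes. LLS ewe 2 gave 613 of the cells and 134 of the HAS2 UMI. Over all ewes the cluster held CD44 at 0.907, TNFAIP6 at 0.527, VCAN at 3.23 and ADAMTS1 at 5.74.

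HLS and LLS ewes were compared within 5 cell groups. In granulosa-like cells 0 of the 4 members tested passed, beside 0% of 11959 genes called, while 541 genes had an unadjusted p below 0.05. The log2 fold change (HLS over LLS) was -1.67 ± 0.97 for TNFAIP6 (SE, adjusted p = 0.956), -0.32 ± 0.58 for VCAN (adjusted p = 0.979), -0.33 ± 0.60 for PTX3 (adjusted p = 0.979) and 0.18 ± 0.20 for ADAMTS1 (adjusted p = 0.963). TNFAIP6 ran from -3.05 to -0.40 as each ewe was left out, the latter without LLS ewe 1. No member had non-overlapping groups, beside 14.2% of genes that did.

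In the cumulus-like and cycling granulosa-like states the VCAN levels of HLS ewes were all below those of LLS ewes. Both states came from the same ewes and scored high on the cumulus markers, so they are not 2 independent results. In cumulus-like cells the means were 7.72 ± 1.28 in 2 HLS ewes and 12.3 ± 2.34 in 3 LLS ewes, and in cycling cells 6.04 ± 0.824 and 11.4 ± 1.41 (SD). The comparison was added after these values were seen. An exact two-sided permutation test gave p = 0.2 in both, the smallest p that 2 against 3 ewes allow, so the design could not reach 0.05. Of 8057 genes, 17.9% in cumulus-like and 18% in cycling cells had non-overlapping groups in the same ewes.

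In stromal-like cells with theca-like cells, 0 of 6 members passed, beside 0% of 14647 genes, and 4 members were among the 626 genes with an unadjusted p below 0.05. The HAS2 level of these sums was 0.00418, 0.0192 and 0.0142 in HLS ewes and 0.0254, 0.152 and 0.026 in LLS ewes. The PTX3 level was 0.0424, 0.093 and 0.122 in HLS and 0.206, 0.182 and 0.177 in LLS. The VCAN level was 0.484, 1.32 and 1.16 in HLS and 3.56, 1.81 and 1.32 in LLS. For these 3 members every HLS ewe was below every LLS ewe, VCAN by the narrowest margin, beside 9.89% of genes with non-overlapping groups. Of those genes 1045 were lower and 403 higher in HLS, so the lower direction was the more common one over all genes. CD44 overlapped, at 0.0759, 0.134 and 0.112 in HLS and 0.348, 0.444 and 0.0894 in LLS. The log2 fold change was -2.34 ± 0.77 for HAS2, -1.05 ± 0.29 for PTX3, -1.10 ± 0.42 for VCAN and -1.33 ± 0.49 for CD44 (SE, adjusted p = 0.836 for each). TNFAIP6 gave -0.91 ± 0.42 (adjusted p = 0.836) and ADAMTS1 -0.24 ± 0.24 (adjusted p = 0.854). HAS2 moved to -0.99 without LLS ewe 2. The median of the members was -1.08, beside -0.01 over all genes. Theca-like cells made up 12.7%, 20.3% and 19.9% of these cells in HLS and 6.89%, 9.25% and 30.2% in LLS, and with them left out HAS2 gave -2.08, VCAN -0.96 and PTX3 -1.06. In stromal-like cells alone PTX3 still did not overlap, whereas HAS2 (0.0324 in HLS ewe 2, 0.0302 in LLS ewe 1) and VCAN (2.09 in HLS ewe 2, 2.04 in LLS ewe 2) did. The immediate early genes summed to 138, 132 and 117 UMI per 10000 in HLS and 152, 205 and 123 in LLS, and their part was not tested.

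**Figure D4:**
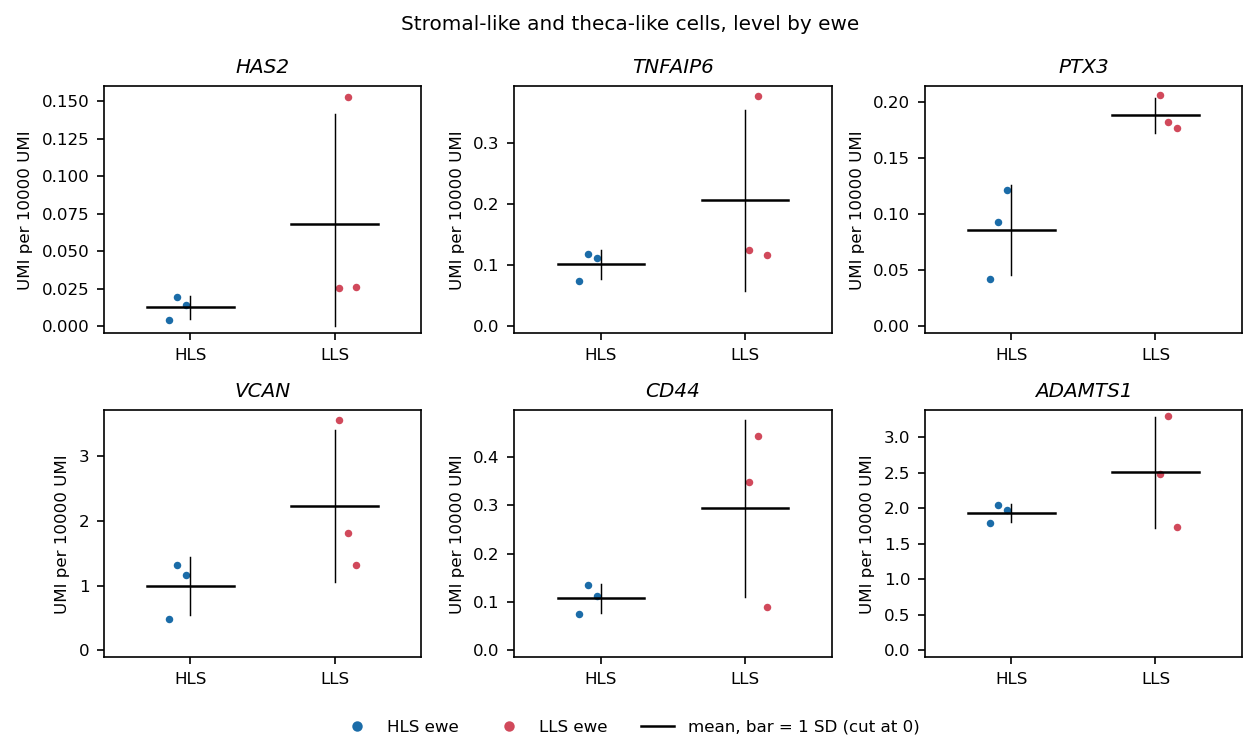
Level of each member (UMI per 10000 UMI) in the stromal-like and theca-like cells of each ewe, one panel per gene, HLS in blue and LLS in red, with the mean as a line and 1 SD as a bar cut at 0. The points of HAS2, VCAN and PTX3 do not overlap between the groups, and no member passed adjustment over all genes.

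In immune-like cells with macrophages, 0 of 5 members passed, beside 0% of 10160 genes, with 476 genes at an unadjusted p below 0.05. PTX3 came closest. Its level was 0.0304, 0.213 and 0.301 in HLS ewes, from 4, 36 and 105 UMI, and 0.754, 0.645 and 0.815 in LLS ewes, from 184, 170 and 120 UMI. The groups did not overlap, beside 9.73% of genes, and the log2 fold change was -1.90 ± 0.43 (SE, adjusted p = 0.409). Over the alternatives the adjusted p ran from 5.69e-09 without a filter on low counts to 0.822 without LLS ewe 3, and DESeq2 called it (-1.95, adjusted p = 0.00439). The share of all genes called under these settings is not given here, so these calls have no background beside them. Macrophage-like cells made up 29.6%, 42% and 31.2% of the cells in HLS and 53.7%, 42.8% and 38.7% in LLS. Their share of the UMI was larger, at 8486287 of 13047388 UMI over all ewes. Within macrophage-like cells alone the PTX3 level was 0.0385, 0.302 and 0.510 in HLS and 0.995, 0.959 and 1.24 in LLS, again without overlap, with a log2 fold change of -1.80 (adjusted p = 0.497). The immediate early genes also stood apart in these sums, at 63.7, 69.9 and 59.7 UMI per 10000 in HLS and 99.5, 84.4 and 74.8 in LLS, and their part was not tested. CD44 gave 0.05, at levels of 1.5, 3.04 and 3.17 in HLS and 2.05, 2.97 and 2.58 in LLS.

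In endothelial-like cells 0 of 4 members passed, beside 0% of 15097 genes (200 at an unadjusted p below 0.05), and the 4 log2 fold changes lay between 0.07 and 0.12. None had non-overlapping groups, beside 4.58% of genes. In perivascular-like cells 0 of 5 members passed, beside 0% of 11084 genes (311 at an unadjusted p below 0.05). CD44 there was 0.345, 0.315 and 0.158 in HLS and 0.355, 0.779 and 0.604 in LLS, a log2 fold change of -0.97 ± 0.37 (adjusted p = 1), and was the member without overlap, beside 8.01% of genes. The difference between the HLS effect in granulosa-like and in stromal-like cells was tested as an interaction, and 0 of 6 members passed, beside 0% of 14791 genes (336 at an unadjusted p below 0.05). HAS2 gave the largest value (3.08 ± 1.32, adjusted p = 1). DESeq2 also called 0 members in the 4 groups other than the immune-like cells.

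**Figure D5:**
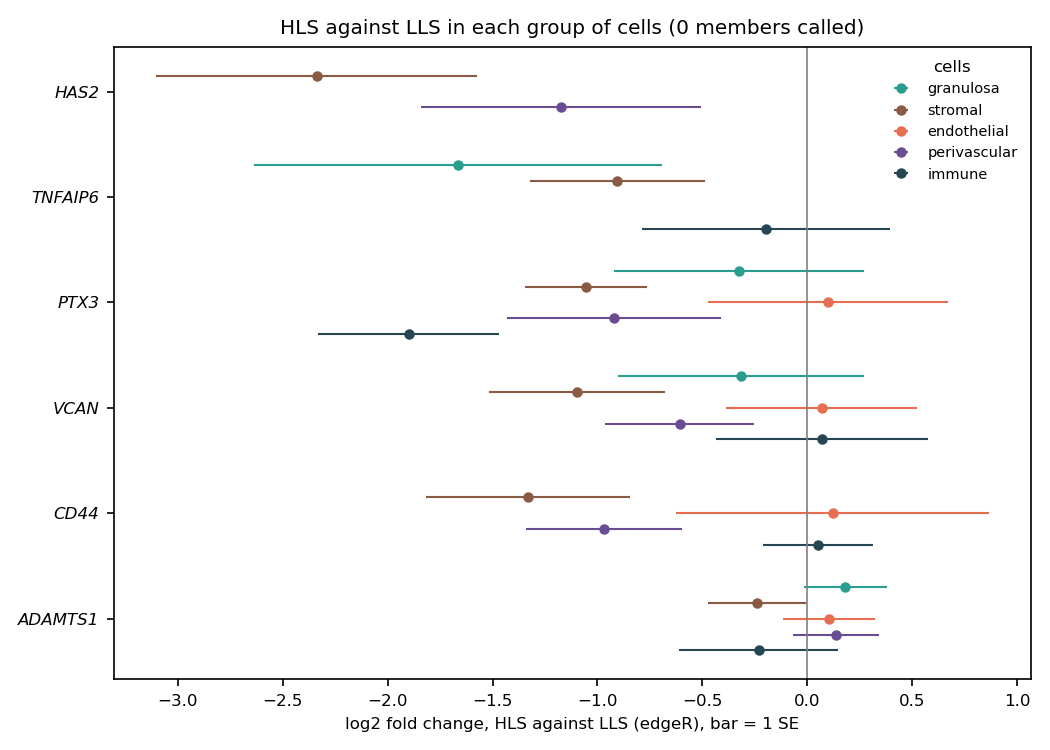
Log2 fold change of HLS over LLS for each member in the 5 cell groups, as points with a bar of 1 SE from edgeR, where members under the filter on low counts have no point. Stromal-like HAS2 lies farthest from 0 at -2.34, and no point passed adjustment over all genes.

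The other genes of the pathway were taken from fixed lists. Of 14 genes of hyaluronan synthesis and breakdown, 13 were tested between granulosa-like and stromal-like cells, of which 0 were higher and 7 lower (median log2 fold change -0.54, beside -0.04 over all genes). HAS1, a sister synthase of HAS2, was lower by -1.87 ± 0.40 (SE, adjusted p = 0.0034), the lysosomal hyaluronidase HYAL1 by -1.16 ± 0.17 (adjusted p = 0.000263) and UGDH, which makes the glucuronic acid precursor, by -0.83 ± 0.10 (adjusted p = 8.26e-05). Against endothelial-like cells 1 was higher and 7 lower of 13, against perivascular-like cells 5 and 5 of 13, and against immune-like cells 3 and 6 of 12. The shares of all genes higher and lower, which hold for every list, were 21.3% and 25.1% against stromal-like, 30.1% and 30.9% against endothelial-like, 25.2% and 25.8% against perivascular-like and 31.4% and 33.7% against immune-like cells. Between mural-like and early-like cells 5 of 9 tested were higher and 2 lower, beside 23.4% and 23.1% of all genes. The lysosomal enzyme GUSB (2.65 ± 0.40, adjusted p = 2.24e-05) was higher in mural-like cells, and CEMIP2, a hyaluronan-cleaving surface protein, was lower (-1.39 ± 0.32, adjusted p = 0.00146). From early-like to cumulus-like cells 1 was higher and 1 lower of 7, beside 21.5% and 21.4% of all genes, and from mural-like to cumulus-like cells 1 higher and 2 lower of 7, beside 20.4% and 24.2%. The higher one in both was GFUS, an enzyme of GDP-fucose synthesis that makes no hyaluronan precursor and was kept because the list was fixed.

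Of 20 genes that bind hyaluronan, carry its heavy chains or link it to proteoglycans, 9 were tested against stromal-like cells, with 2 higher and 3 lower. ITIH4, of the inter-alpha-trypsin inhibitor family, was higher in granulosa-like cells by 2.57 ± 0.40 (SE, adjusted p = 0.000434), and HMMR, a hyaluronan-binding protein of dividing cells, by 3.55 ± 0.37 (adjusted p = 2.94e-05). Cycling granulosa-like cells were part of this comparison and the separate cycling class was not, and the part of this in HMMR was not tested. The link protein HAPLN1 (-4.88 ± 0.66, adjusted p = 0.000186) and the receptors LAYN (-3.16 ± 0.24, adjusted p = 3.09e-06) and LYVE1 (-0.99 ± 0.23, adjusted p = 0.00571) were lower. The counts were 2 higher and 4 lower of 9 against endothelial-like, 0 and 4 of 8 against perivascular-like and 3 and 3 of 7 against immune-like cells. Within granulosa-like cells ITIH5 and ITIH4 differed in the opposite direction to VCAN between cumulus-like and mural-like cells. ITIH5 was lower in cumulus-like than in early-like cells (-6.22 ± 0.37, adjusted p = 4.01e-13), the 1 gene of the list tested there, and lower than in mural-like cells (-6.54 ± 0.31, adjusted p = 5.22e-13). ITIH4 was higher in mural-like than in early-like cells (4.39 ± 0.46, adjusted p = 1.85e-07), where HAPLN3 was lower, with 1 higher and 1 lower of 3. Between cumulus-like and mural-like cells 1 gene, HMMR, was higher and 2 were lower of 3.

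Of 7 genes of VCAN cleavage, 6 were tested against stromal-like cells, with 0 higher and 5 lower (median log2 fold change -1.77, beside -0.04). The proteases ADAMTS4 (-2.77 ± 0.17, adjusted p = 7.99e-07) and ADAMTS9 (-3.16 ± 0.30, adjusted p = 1.55e-05) and the cofactor FBLN1 (-1.75 ± 0.27, adjusted p = 0.000434) were lower in granulosa-like cells, as ADAMTS1 was. Against endothelial-like cells 1 was higher and 3 lower of 6, against perivascular-like cells 1 and 4 of 6, and against immune-like cells 3 and 0 of 4. In mural-like cells, FBLN1 (4.12 ± 0.24, adjusted p = 5.59e-11) and the protease ADAMTS5 (2.23 ± 0.27, adjusted p = 1.34e-06) were higher than in early-like cells, and the inhibitor TIMP3 was lower, 2 and 1 of 4. In cumulus-like cells, where VCAN was higher, ADAMTS5 (-4.93 ± 0.40, adjusted p = 2.25e-09) and FBLN1 (-3.02 ± 0.20, adjusted p = 5.71e-11) were lower than in mural-like cells. That comparison gave 1 higher and 2 lower of 3. Cumulus-like against early-like cells gave 1 higher and 0 lower of 3. The higher gene there was FBLN1, in the same direction as VCAN.

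Of 15 genes of the ovulatory cascade upstream of this matrix, 14 were tested against stromal-like cells, with 6 higher and 6 lower, beside 21.3% and 25.1% of all genes. PTGES, which makes prostaglandin E2, was higher in granulosa-like cells by 3.64 ± 0.32 (SE, adjusted p = 8.79e-06) and the EGF-like ligand EREG by 3.11 ± 0.43 (adjusted p = 0.000211). PTGS2, the inducible cyclooxygenase that feeds PTGES, was lower by -4.95 ± 0.16 (adjusted p = 1.82e-08) and the progesterone receptor PGR by -1.05 ± 0.13 (adjusted p = 0.000118). The luteinising hormone receptor LHCGR was lower by -4.93 ± 0.62 (adjusted p = 0.000115), and theca-like cells, part of the stromal-like side, held it at a mean level of 9.54. The counts were 8 higher and 4 lower of 15 against endothelial-like, 6 and 6 of 13 against perivascular-like and 5 and 6 of 14 against immune-like cells. In cumulus-like cells PTGES was higher than in early-like cells (4.82 ± 0.33, adjusted p = 5.42e-12) and than in mural-like cells (2.99 ± 0.19, adjusted p = 2.97e-11). PTGS2 was lower in cumulus-like than in early-like cells (-4.15 ± 0.62, adjusted p = 4.87e-06). The counts between states were 2 higher and 2 lower of 7 for cumulus-like against early-like, 5 and 2 of 10 for mural-like against early-like, and 1 and 2 of 9 for cumulus-like against mural-like cells.

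Of the 10 immediate early genes, 1 was higher and 8 lower in granulosa-like than in stromal-like cells. They were 2 and 7 of 10 against endothelial-like, 0 and 8 of 10 against perivascular-like, 2 and 4 of 10 against immune-like cells, 0 and 6 of 9 for cumulus-like against early-like, 1 and 8 of 10 for mural-like against early-like, and 4 and 3 of 9 for cumulus-like against mural-like cells. In no list did a gene pass between HLS and LLS ewes in any of the 5 cell groups.

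Genes with the most similar pattern to each member were ranked by Pearson's r of log2(CPM + 1), where CPM is counts per 1e6 UMI, over 70 sums of 12 types and 6 ewes, among 9248 genes. The sums of 1 ewe share a library, so r is a description. HAS2 was nearest to SLC35F1 (0.926), LGI4 (0.891) and ADAM23 (0.854), all highest in Schwann-like cells, as HAS2 was. TNFAIP6 and VCAN were among each other's nearest genes (0.782), and RAB31 was near both (0.715 and 0.789). PTX3 was nearest to TNFAIP8L3 (0.729), C5AR2 (0.727) and DOCK5 (0.693), CD44 to EMP3 (0.874), IL1A (0.858) and GMIP (0.811), and ADAMTS1 to FSTL1 (0.874), LAMA4 (0.861) and RHOJ (0.849). HAS2 was itself under the mean CPM of 10 asked of the ranked genes, so it could not be listed for another member. Apart from TNFAIP6 and VCAN, none of the members that could be listed was among the nearest 3 of another.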

How the data were processed

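Ovarian cells of 6 ewes were measured by 10x 3′ single-cell RNA-seq. The authors aligned reads and counted UMI with Cell Ranger and STAR (the genome build is not given in the sources used here) and deposited raw counts per gene and cell. The members, lists and markers were chosen with earlier results of these data known, and thresholds for naming clusters were set after clusters were seen.

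Cells with at least 200 genes, 1000 UMI, a complexity of 0.7, at most 10% mitochondrial and 5% haemoglobin UMI were kept (38464 of 52290 barcodes), and 2007 simulated-doublet matches were removed. Clustering used 2000 variable genes, 30 components, 20 neighbours and Leiden resolution 0.8 (leidenalg 0.10.2, igraph 0.11.9, scikit-learn 1.9.0, numpy 2.4.6, scipy 1.17.1, pandas 2.3.3, Python 3.11.15). A cluster took the name of the type with the highest marker score (at least 0.5, 3 markers detected). UMI were summed per ewe and type (at least 10 cells). edgeR 4.0.16 (limma 3.58.1, R 4.3.3) gave quasi-likelihood tests with TMM scaling and filterByExpr, with the ewe as a block between types, and Benjamini-Hochberg adjustment over all genes at 0.05. The SE is the log2 fold change divided by the root of F. The code was tested on simulated data. DESeq2 1.42.0 and the other alternatives are in the closing section, and leaving out theca-like, lymphatic or macrophage-like cells was chosen after seeing the data. The text names the 6 members, genes of the fixed lists called in a comparison, and per member the 3 genes with the highest correlation (mean CPM at least 10). Gene names came from RefSeq (ARS-UI_Ramb_v3.0): 25805 of 30574 names equalled a symbol and 446 LOC names were resolved by gene ID. TMEM2, an older symbol of CEMIP2, was not found separately. The labels give the ewes replicate numbers 1 to 3 in each group.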

Additional observations from a re-analysis of the deposited data

How the results depend on the processing

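The counts of members called stayed within 1.5 times of the reported ones under the alternatives (another scaling, no filter on low counts, DESeq2, no ewe block, each ewe left out, doublets kept, a mitochondrial limit of 20%, other clustering resolutions, listed genes among the variable genes, and the groups left out after seeing the data), except as follows. Between granulosa-like and immune-like cells 5 members were called against macrophage-like cells alone (3 as reported). Between cumulus-like and early-like cells 1 was called without the ewe block and 1 without HLS ewe 2 (2 as reported). Between mural-like and early-like cells 5 were called without the filter and 4 with listed genes among the variable genes (2 as reported), and between cumulus-like and mural-like cells 5 without the filter (2 as reported). Between HLS and LLS in immune-like cells 1 was called without the filter and 1 by DESeq2 (0 as reported). The shares of all genes called under the alternatives are not given here. The counts of members under them are therefore not set against a background. The order of types was run with doublets kept, a mitochondrial limit of 20%, each ewe left out and cells thinned. In each of these 0 pairs passed, which says little, since even with 6 ewes a pair passes only if most pairs reach the smallest p. With an ewe left out the smallest possible p was 0.0625, so no pair could pass there and those results say nothing of stability. The type with the highest mean changed only for VCAN, to Schwann-like without HLS ewe 2. Leaving out each ewe gave 3 to 4 members called against stromal-like, 5 to 6 against endothelial-like, 4 to 6 against perivascular-like and 2 to 4 against immune-like cells, 1 to 2 for cumulus-like against early-like, 2 to 3 for mural-like against early-like and 0 between HLS and LLS. The 24 called folds kept direction and call in 338 of 363 alternatives, lost the call in 24 and reversed in 1 (ADAMTS1 against immune-like cells with doublets kept, -0.20).

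Folds that had not passed also changed sign. Against stromal-like cells, TNFAIP6 gave 0.43 without the ewe block, 0.30 at resolution 0.4 and -0.66 to 0.26 as each ewe was left out, and HAS2 -1.20 to 0.65. Against immune-like cells, VCAN gave 0.16 by library size alone, 0.47 and 1.31 at resolutions 0.4 and 1.6, -0.46 to 0.0079 as each ewe was left out and 4.17 with macrophage-like cells left out. PTX3 gave 0.028 by library size, 0.076 at resolution 1.6 and 4.34 with macrophage-like cells left out, and TNFAIP6 then 2.59. ADAMTS1 in cumulus-like against mural-like cells ran from -0.48 to 0.24 as each ewe was left out. Between HLS and LLS in granulosa-like cells VCAN ran from -1.14 to 0.14 and PTX3 from -1.51 to 0.084, and PTX3 gave 0.19 at resolution 0.4. HAS2 was called lower at resolution 0.4 against stromal-like (-3.11) and perivascular-like cells (-3.82). Scaling by library size moved the members' median by 0.343 against immune-like, 0.148 against endothelial-like and 0.117 against stromal-like cells, by -0.187 for cumulus-like against early-like cells, and by -0.159 and -0.113 between HLS and LLS in granulosa-like and stromal-like cells. The causes were not tested.

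Ewes share replicate numbers across the groups. For numbers 1, 2 and 3 their deviations correlated at -0.0442, -0.172 and 0.197 in granulosa-like cells and at -0.275, -0.331 and 0.275 in endothelial-like cells. With 3 ewes per group these values cannot tell whether the numbers mark pairs. With the replicate block, 0 members were called between HLS and LLS in each of the 5 cell groups and in the interaction, as without it. Depth limits HAS2 most, at 454 UMI, and 3 ewes per group limit the comparison of HLS with LLS.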

Other observations

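A cluster of 138 cells that no marker list named, led by S100A8, S100A9 and CXCR2, genes known from neutrophils, held 724 of the 6017 PTX3 UMI (12%) and 181 of the 2436 TNFAIP6 UMI (7.43%). Its cells were shallow, with a median of 1265.5 UMI. The PTX3 level was 1.2, 4.09 and 66.7 in HLS ewes 1, 2 and 3, and 0.214 and 7.29 in LLS ewes 1 and 2, and the TNFAIP6 level was 1.88, 1.36 and 14.8 in HLS and 0.257 and 2.80 in LLS. HLS ewe 3 stood far above the other ewes in both genes, and LLS ewe 3 gave 6 cells, too few for a sum. A PTX3 UMI was seen in 47.1% of these cells, and in 41.3% after thinning to 1000 UMI.

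A second cluster that kept no name, led by OXT, which luteal cells are known to express, came from LLS ewe 3 for 104 of its 123 cells. In that ewe it held PTX3 at 1.74 and TNFAIP6 at 1.07. HLS ewe 1, with 12 cells, held PTX3 at 0 and TNFAIP6 at 0.749, and the other ewes gave too few cells for a sum.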
